A study of Mus musculus with 8 samples.

Results

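Transcripts were compared between miR-290-295 knockout mouse embryonic stem cells that received a Tfap4 siPOOL and the same cells that received a negative control siPOOL. The comparison uses 4 of the 8 libraries of the study, 2 with the Tfap4 siPOOL (siTfap4) and 2 with the control (siNeg), described as biological duplicates that were prepared and sequenced together. It was chosen by its labels and covers 13675 tested genes of the 55421 gene identifiers in the count table. All 4 cultures were E14 cells of 129/Ola background, derived from the blastocyst, and all lacked the microRNA cluster, so the control cells carried the deletion too. They were grown on gelatin with serum and LIF, transfected with 5 nM of a pool by Lipofectamine RNAiMax and harvested 36 hours later. Which knockout clone was transfected is not given in the sources used here. No mock-transfected library was analysed, and the remaining 4 libraries (untreated knockout and wild-type cells) were prepared as a separate set. The question of the comparison is which transcripts change when Tfap4 is lowered in cells without the cluster.

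TFAP4 (AP-4) is a basic helix-loop-helix leucine zipper protein that binds as a dimer to the symmetrical E-box CAGCTG. In other cells it acts downstream of MYC, represses the cell cycle inhibitor gene Cdkn1a and promotes mesenchymal gene expression. Embryonic stem cells express the miR-290-295 microRNAs at high level, and these share a seed that directs them to transcripts of cell cycle inhibitors and other regulators. An siPOOL is a mixture of many small interfering RNAs against one transcript, each present at low concentration. QuantSeq libraries read only the end of a polyadenylated transcript, so a count stands for a transcript end and does not depend on transcript length.

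The libraries held 8326675 to 11395211 counts, and 19271 to 21083 genes had at least 1 count. Levels below are CPM, counts relative to library size, scaled with TMM factors. For genes given with their values, a library left out below is named with the adjusted p of the fit without it where the call was lost. Genes given by name only were called in the fit of all 4 libraries, and many of these calls were lost in other fits. The duplicates differed among themselves in both groups, and differences past 2-fold were more frequent in the knockdown. Of 8405 genes with a mean of at least 10 CPM, 240 (2.86%) differed by more than 2-fold between the siNeg libraries and 574 (6.83%) between the siTfap4 libraries. The median absolute log2 difference was 0.295 within siNeg, 0.315 within siTfap4 and 0.450 between the groups.

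Fold changes followed the GC content of the transcript's last 100 bases. In the decile of lowest GC (9% to 25%, 1494 genes) the median log2 fold change of siTfap4 against siNeg was -0.52. In the decile of highest GC (51.3% to 76%, 1144 genes) it was 0.46. The siNeg duplicates themselves separated along this axis. In the lowest decile the median log2 deviation from the gene mean was 0.44 in siNeg replicate 1 and 0.08 in siNeg replicate 2, against -0.29 and -0.17 in the siTfap4 replicates. In the highest decile the siNeg deviations were -0.30 and -0.09, and those of siTfap4 were 0.31 and 0.13. The first replicate of each group thus stood farther from 0 than the second. Each gene was therefore also fitted with a curve of GC per library as an offset, called the GC correction below. The part of the trend in the fold change of any single gene was not tested.

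**Figure D1:**
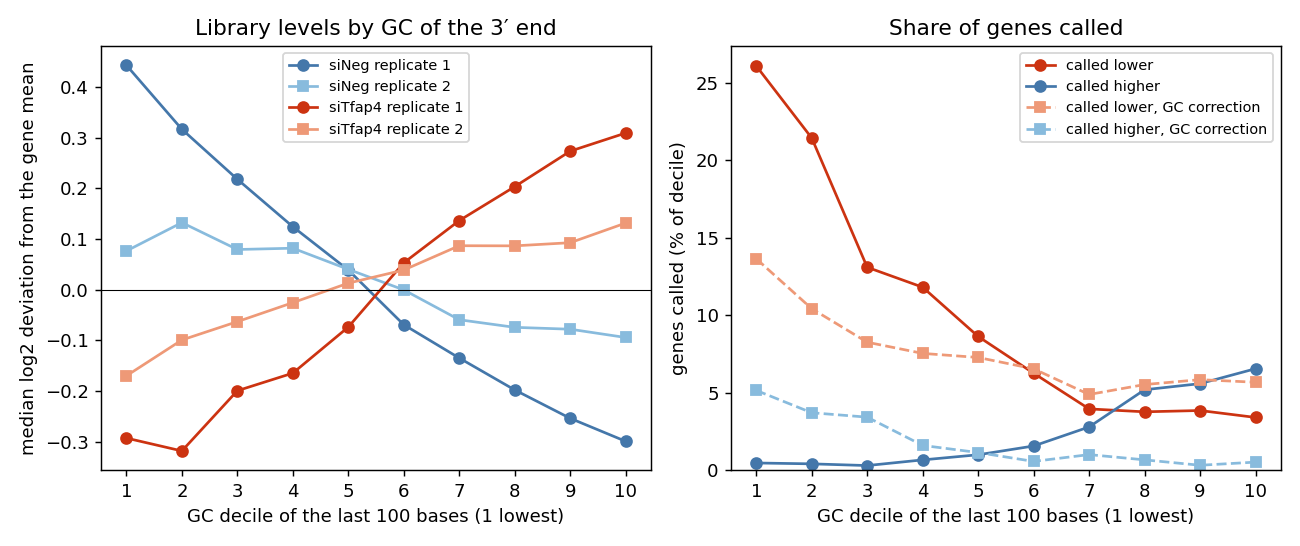
Left, the median log2 deviation of each library from the gene mean, by decile of GC content of the last 100 bases; right, the percent of genes in each decile called lower or higher in siTfap4, without (solid) and with (dashed) the GC correction. Called lower genes made up 26.1% of the lowest decile and 3.41% of the highest, and 13.7% and 5.68% with the correction. Called higher genes made up 0.469% of the lowest decile and 6.56% of the highest, and 5.15% and 0.524% with the correction. The share of rises thus ran the other way along GC once corrected.

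Tfap4 (ENSMUSG00000005718, GRCm38 chr16:4544661-4559854, minus strand) fell in the cells that received its siPOOL. It was at 33.6 and 36.9 CPM in the siNeg replicates and at 11.7 and 15.5 CPM in the siTfap4 replicates, from 402, 386, 97 and 134 counts. The groups did not overlap. The means were 35.3 ± 2.3 and 13.6 ± 2.7 CPM (SD, n = 2), so the level was 2.60-fold lower (log2 fold change -1.37, SE 0.34, edgeR's quasi-likelihood test with Benjamini-Hochberg adjustment, adjusted p = 0.00608). Under the GC correction the log2 fold change was -1.09 (adjusted p = 0.0285), and without siTfap4 replicate 1 the adjusted p was 0.0745. In CPM without TMM scaling, untreated knockout cells held 50.4 and 43.3 CPM and wild-type cells 19.9 and 17.0 CPM, set side by side because those libraries belong to the other set. In bulk RNA, fewer cells with the transcript and less of it per cell cannot be told apart.

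At an adjusted p under 0.05, 1789 of 13675 genes (13.1%) were called. Of these, 1466 (10.7%) were lower in siTfap4 and 323 (2.36%) were higher. The falls were also deeper, with a median log2 fold change of -1.64 among genes called lower and 1.15 among genes called higher. A change of at least 4-fold was fitted for 494 of the falls and 28 of the rises, and one of at least 8-fold for 144 falls and 2 rises. All called genes kept their 2 groups apart, as did 8179 of all tested genes (59.8%). With upper-quartile scaling, which moved the median log2 fold change of all genes from -0.01 to 0.12, the split was 1244 lower and 695 higher, so the share of rises among calls went from 18.1% to 35.8%. The p-values measure the spread between these duplicates, with 2 residual degrees of freedom.

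The number of calls depended on single libraries, and siTfap4 replicate 1 was the more extreme of its pair. Among 1029 falls whose mean reached 10 CPM, its level was below that of siTfap4 replicate 2 in 920 (89.4%), against 52.6% of all genes at that level. Among 237 rises of that level it was below in 13 (5.49%). Without this library 688 genes were called (659 lower, 29 higher), and without siTfap4 replicate 2 the number was 2749. Without siNeg replicate 1 it was 1011, and without siNeg replicate 2 it was 1466. With the GC correction 1309 genes were called (9.57%), 1055 lower (7.71%) and 254 higher (1.86%), and 936 of the falls and 80 of the rises were among the calls without it. Across 14 alternative fits, 453 falls (3.31% of tested genes) and 2 rises (0.0146%) kept their direction and their call in each fit that tested them. A fit limited to genes above 10 CPM tested 348 of these falls. The 453 had a median log2 fold change of -2.35 and a median GC of 28% in the last 100 bases, where all falls had 29%, all rises 47% and all tested genes 37%.

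**Figure D2:**
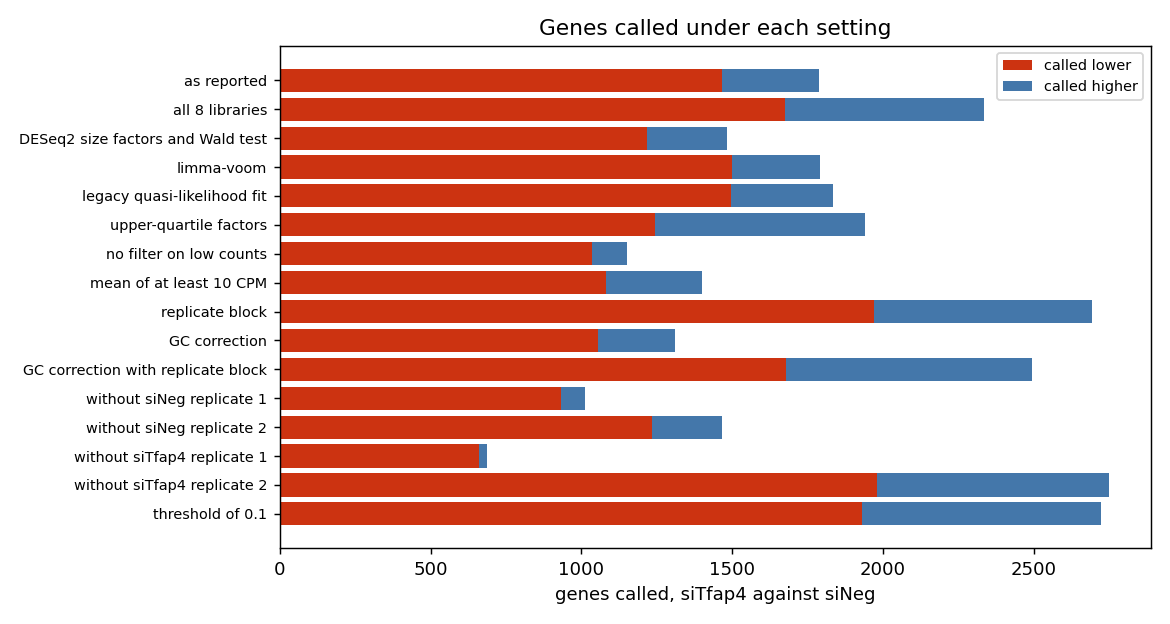
Number of genes called lower (red) and higher (blue) in siTfap4 against siNeg under each setting of the analysis. The total ran from 688 without siTfap4 replicate 1 to 2749 without siTfap4 replicate 2, and falls outnumbered rises under each setting shown.

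**Figure D3:**
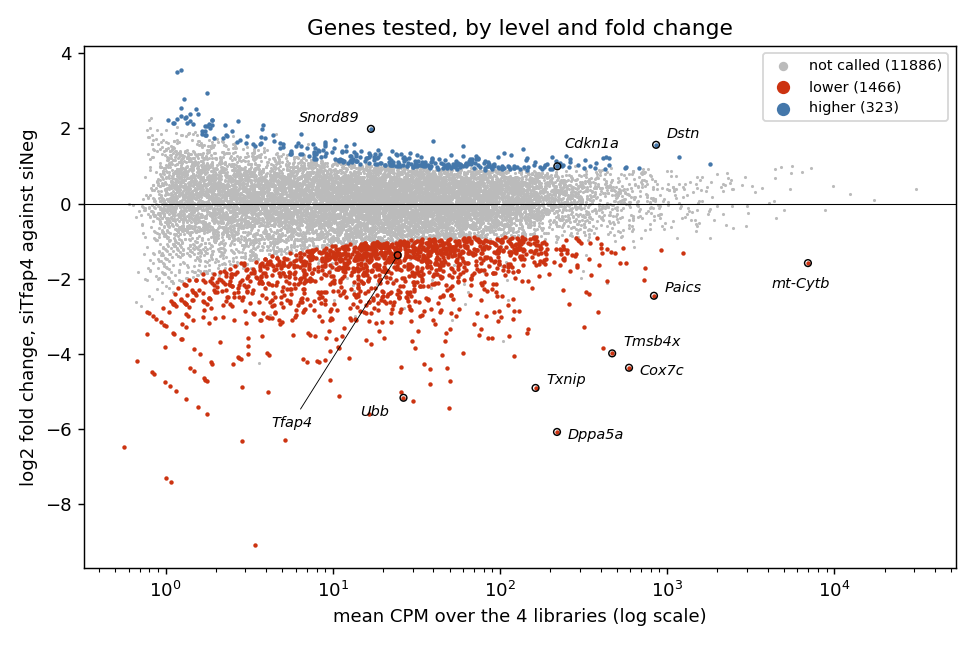
Log2 fold change of siTfap4 against siNeg by mean CPM over the 4 libraries (log axis), 1 point per tested gene, red for the 1466 called lower and blue for the 323 called higher. Tfap4 sits among the moderate falls, while Dppa5a, Ubb, Txnip, Cox7c and Tmsb4x lie between -3.99 and -6.08.

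Among called genes with a mean of at least 10 CPM, the 10 with the largest falls were Dppa5a, Pfn1, Ctnnd1, Pmpcb, Ubb, Fbxl14, Zfp988, Txnip, Snhg8 and Nr0b1, with log2 fold changes from -4.73 to -6.08. Each was a larger change than that of Tfap4 itself. Dppa5a, a KH domain protein of pluripotent cells (chr9:78367052-78368177), was at 378 and 487 CPM in siNeg and at 3.62 and 9.12 CPM in siTfap4, from 4519, 5092, 30 and 79 counts. The mean was 67.9-fold lower in siTfap4 (log2 fold change -6.08, SE 0.43, adjusted p = 3.38e-10). Txnip, the thioredoxin-interacting protein that restrains glucose uptake (chr3:96557957-96561883), went from 358 and 275 CPM to 8.33 and 12.7 CPM (log2 fold change -4.91, SE 0.37, adjusted p = 9.48e-11). Ubb, a polyubiquitin gene, went from 44.4 and 58.7 to 1.81 and 1.04 CPM (-5.17, SE 0.43, adjusted p = 5.12e-10). In these 3 genes the gap between groups was far wider than that between duplicates.

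In several of the others the siNeg duplicates were themselves far apart. Pfn1, which encodes the actin monomer binding protein profilin, was at 51.9 and 12.4 CPM in siNeg and at 0.724 and 0.578 CPM in siTfap4 (log2 fold change -5.61, SE 0.79, adjusted p = 0.00189). Ctnnd1, the p120 catenin of adherens junctions, was at 152 and 43.5 CPM in siNeg and at 2.41 and 2.08 CPM in siTfap4 (-5.43, SE 0.62, adjusted p = 0.000267). Pmpcb, a subunit of the mitochondrial processing peptidase, was at 96.7 and 21.7 against 0.845 and 2.19 CPM (-5.27, SE 0.92, adjusted p = 0.0168). In each of these the lower siNeg value, from replicate 2, was still more than 8-fold above both siTfap4 values. Nr0b1 (DAX1), an orphan nuclear receptor of the naive pluripotency network, had the same form, at 152 and 41.0 against 1.45 and 5.78 CPM (-4.73, SE 0.89, adjusted p = 0.0222). Its adjusted p was 0.149 when the GC correction was combined with the replicate number as a block. The other 9 of the largest falls were called under all 14 alternatives. Among these alternatives, the fits without a siNeg library drop the gap between the siNeg duplicates, so they could not weigh it.

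Fbxl14, an F-box protein that directs SNAI1 to degradation, was at 30.5 and 11.7 against 0.483 and 0.693 CPM, and the zinc finger gene Zfp988 at 61.2 and 38.1 against 0.724 and 2.31 CPM. Snhg8, a noncoding host gene of a small nucleolar RNA, was at 103 and 43.9 against 1.57 and 3.70 CPM. In Fbxl14 and Snhg8 the siNeg values were again more than 2-fold apart, and no siTfap4 value came near them. Untreated knockout cells of the other set, scaled together with the siPOOL libraries, held 355 and 340 CPM of Dppa5a, 606 and 287 of Txnip, 67.3 and 81.8 of Pfn1, 195 and 175 of Ctnnd1 and 118 and 120 of Snhg8. On that scale siNeg held 387 and 493 CPM of Dppa5a and 366 and 278 of Txnip, while for Pfn1, Ctnnd1 and Snhg8 both siNeg values were below the untreated ones. The sets were prepared apart, and this difference was not tested.

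**Figure D4:**
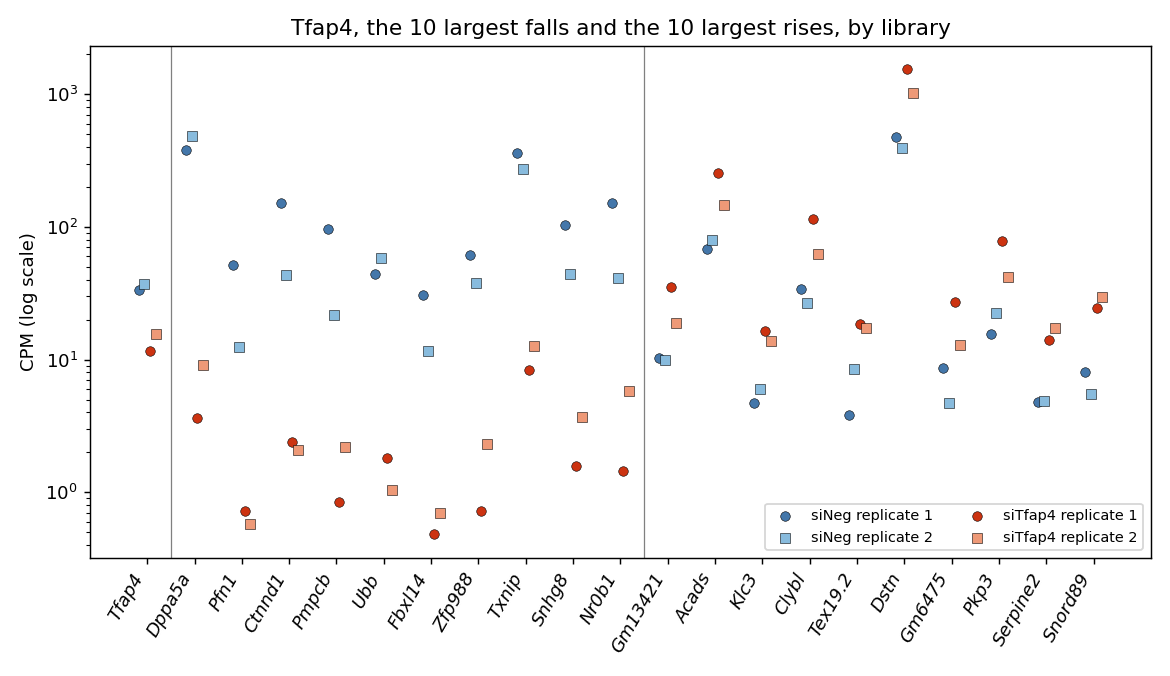
CPM on a log axis in each of the 4 libraries for Tfap4, the 10 largest falls and the 10 largest rises among called genes with a mean of at least 10 CPM. Points of the same group are offset sideways, and the siTfap4 points of Dppa5a and Txnip lie at 3.62 to 12.7 CPM against 275 to 487 CPM in siNeg.

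Among the falls called under all 14 alternatives, the 10 most abundant were Cox7c, Rps27a, Rpl17, Txn1, Rps23, Srsf1, Slc2a1, Slc7a3, Slc25a5 and Sf1. They spanned the respiratory chain, the ribosome, redox control, splicing and membrane transport, with log2 fold changes from -1.33 to -4.37. Cox7c, a small subunit of cytochrome c oxidase, was at 1175 and 1084 CPM in siNeg and at 30.3 and 78.9 CPM in siTfap4 (log2 fold change -4.37, SE 0.42, adjusted p = 3.25e-07). Rps23, a protein of the small ribosomal subunit, was at 467 and 685 against 54.1 and 64.9 CPM (-3.27, SE 0.34, adjusted p = 6.65e-08). In both, each siTfap4 value was more than 4-fold below the lower siNeg value.

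Rps27a, whose product is a fusion of ubiquitin and a ribosomal protein, was at 555 and 807 against 46.0 and 136 CPM (log2 fold change -2.90). Rpl17, of the large subunit, was at 634 and 513 against 77.0 and 141 CPM (-2.40), and the thioredoxin gene Txn1 at 656 and 444 against 64.0 and 153 CPM (-2.34). The splicing factor Srsf1 was at 518 and 362 against 122 and 149 CPM (-1.70), and Sf1, which recognises the branch point of introns, at 402 and 295 against 103 and 120 CPM (-1.64). None of these groups overlapped. Among transporters, the glucose carrier Slc2a1 was at 441 and 371 against 163 and 159 CPM (-1.33), the cationic amino acid carrier Slc7a3 at 436 and 378 against 71.2 and 164 CPM (-1.79), and the mitochondrial ADP/ATP carrier Slc25a5 at 463 and 331 against 57.8 and 103 CPM (-2.30). Reads of 8 named genes are uncertain because over 50% of their last 200 bases is shared with other genes, mostly copies: Ubb, Zfp988, Cox7c, Rps27a, Rps18, Rps2, Gpx4 and Gapdh.

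Of all genes called lower, the 5 most abundant were mt-Cytb, Rps24, Atp5g3, Paics and Rps18. The mitochondrially encoded mt-Cytb was at 11019 and 9864 CPM in siNeg and at 2062 and 4903 CPM in siTfap4 (log2 fold change -1.58, SE 0.41, adjusted p = 0.00913). Paics, an enzyme of purine synthesis, was at 1298 and 1525 against 103 and 412 CPM (-2.45, SE 0.59, adjusted p = 0.0295). The siTfap4 duplicates of both genes were more than 2-fold apart, with replicate 1 the lower. Leaving out siTfap4 replicate 1 gave an adjusted p of 0.446 for mt-Cytb, 0.403 for Rps24, 0.491 for Atp5g3 and 0.171 for Rps18. Leaving out siNeg replicate 2 gave 0.178 for Paics, 0.148 for Atp5g3 and 0.0656 for Rps18.

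Rises were smaller. The 10 largest among called genes with a mean of at least 10 CPM were Snord89, Serpine2, Pkp3, Gm6475, Dstn, Tex19.2, Clybl, Klc3, Acads and Gm13421, with log2 fold changes from 1.42 to 1.99. Snord89, listed as a small nucleolar RNA (chr1:39548745-39548854), was at 8.03 and 5.55 CPM in siNeg and at 24.5 and 29.6 CPM in siTfap4 (log2 fold change 1.99, SE 0.36, adjusted p = 0.000289). It overlaps the gene Gm15832 on the same strand, so its reads may belong to either. Serpine2, an extracellular inhibitor of serine proteases, was at 4.77 and 4.88 against 14.1 and 17.2 CPM (1.70, SE 0.39, adjusted p = 0.00320). These 2 were the rises called under all 14 alternatives, and in both the duplicates lay close together.

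Dstn (destrin), which severs actin filaments, was the most abundant of the large rises. It was at 473 and 396 CPM in siNeg and at 1544 and 1024 CPM in siTfap4 (log2 fold change 1.56, SE 0.34, adjusted p = 0.00173). The plakophilin gene Pkp3, of desmosomes, was at 15.6 and 22.5 against 78.4 and 41.7 CPM (1.66), and Acads, which oxidises short-chain fatty acids in mitochondria, at 67.9 and 80.2 against 256 and 147 CPM (1.44). In all 3, siTfap4 replicate 1 was the highest library, and without it the log2 fold change was 1.24 (adjusted p = 0.0593) for Dstn, 1.14 (0.0533) for Pkp3 and 0.99 (0.0930) for Acads. Also without it, the log2 fold change was 1.04 (0.0742) for Clybl, 1.37 (0.0615) for Klc3, 0.95 (0.296) for Gm6475 and 0.90 (0.265) for Gm13421. Klc3 (0.111) and Tex19.2 (0.200) lost their call without siNeg replicate 1, and Gm6475 (0.0928) without siNeg replicate 2. Under the GC correction Klc3 (0.0694) and Gm13421 (0.0741) were not called.

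Abundant rises were Sub1, Tuba1c, Dstn and Prmt1. The transcription coactivator Sub1 was at 1206 and 1139 CPM in siNeg and at 2859 and 2020 CPM in siTfap4 (log2 fold change 1.06, SE 0.34, adjusted p = 0.0378). The tubulin gene Tuba1c was at 568 and 835 against 2050 and 1252 CPM (1.24, SE 0.35, adjusted p = 0.0161). Groups did not overlap in either gene. The adjusted p without siTfap4 replicate 1 was 0.441 for Sub1, 0.351 for Tuba1c and 0.334 for the arginine methyltransferase gene Prmt1, and without siNeg replicate 1 it was 0.0888, 0.140 and 0.163. Without siNeg replicate 2 it was 0.0771 for Sub1 and 0.106 for Prmt1, and without siTfap4 replicate 2 it was 0.0586 for Prmt1. Prmt1 (0.319) was not called with the GC correction.

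Gene lists are described by how many members were called, to be read beside the 10.7% lower and 2.36% higher among all tested genes. Of 12 tested genes reported elsewhere to respond to TFAP4, 1 rose (Cdkn1a) and 4 fell (Vim, Cdk2, Cdkn2a and Snai1), with a median log2 fold change of -0.18 beside -0.01 for all tested genes. With the GC correction the list had no rise, 3 falls and a median of -0.02 beside 0.04 for all genes, and without siTfap4 replicate 1 it had no rise and 2 falls. Cdkn1a, the p21 inhibitor of cyclin-dependent kinases, was at 156 and 139 CPM in siNeg and at 275 and 312 CPM in siTfap4. The groups did not overlap (log2 fold change 0.99, SE 0.31, adjusted p = 0.0276). The call was narrow: leaving out siNeg replicate 1, siNeg replicate 2, siTfap4 replicate 1 or siTfap4 replicate 2 gave adjusted p of 0.0934, 0.118, 0.0636 and 0.0722, and the GC correction gave a log2 fold change of 0.63 (adjusted p = 0.169).

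Vim, the vimentin of mesenchymal intermediate filaments, was at 307 and 258 CPM in siNeg and at 92.4 and 91.6 CPM in siTfap4 (log2 fold change -1.62, SE 0.31, adjusted p = 0.000471). Cdk2, the kinase that p21 inhibits, was at 81.9 and 50.5 against 16.1 and 23.2 CPM (-1.75, SE 0.34, adjusted p = 0.000584). Both were called under all 14 alternatives. Cdk2 overlaps Pmel on the opposite strand, and since the strand setting of the counting is not given in the sources used here, reads of the 2 genes may mix. The same limit holds for 41 of the 129 genes selected by name, Cdk2 included, that overlap a gene on the opposite strand, such as Txnip, Pmpcb, Fbxl14, Klc3, Paics, Srsf1, Ccnd1, Ccna2, Tcf7, Psph, Bid and Gapdh. The inhibitor gene Cdkn2a was at 22.2 and 22.6 against 3.14 and 11.2 CPM (-1.64, adjusted p = 0.0179, and 0.207 without siTfap4 replicate 1). Snai1, a repressor of epithelial genes, was at 4.85 and 3.73 against 0.362 and 1.27 CPM (-2.37, adjusted p = 0.00848, 0.0573 without siNeg replicate 1, 0.182 without siTfap4 replicate 1 and 0.0539 with the GC correction). The matrix gene Fn1 (-0.60, adjusted p = 0.219) and the E-cadherin gene Cdh1 (0.04, adjusted p = 0.954) were not called.

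Promoters were searched for the TFAP4 word CAGCTG, which reads the same on both strands, in windows from 250 bases before to 50 bases after the start of each gene, taken from RefSeq (GRCm38.p6). A window was matched for 9789 tested genes. The word was present in 14.8% of all of these, in 42 of 226 rises (18.6%) and in 136 of 1115 falls (12.2%). Among falls called in each alternative fit that tested them, it was present in 38 of 353 (10.8%). Genes with the word had a median log2 fold change of 0.06 and genes without it -0.04, or 0.10 and 0.02 with the GC correction. The word CACGTG, bound by MYC-MAX and related dimers, was present in 10.4% of all, in 28 of 226 rises (12.4%) and in 123 of 1115 falls (11.0%). Over the 27025 promoters of the table the shares were 16.1% for CAGCTG and 7.24% for CACGTG. A match describes the letters of the window and does not show binding. Shown here are 60 bases of each of 3 promoters with CAGCTG in capitals, read 5′ to 3′ on the gene's strand, because Cdk2 and Paics fell, while Irf1, an interferon-response factor at 65.3, 68.8, 39.3 and 54.5 CPM, was not called (-0.51, adjusted p = 0.289).
Cdk2 (chr10:128705145-128705204, minus strand, word 126 to 121 bases before the start): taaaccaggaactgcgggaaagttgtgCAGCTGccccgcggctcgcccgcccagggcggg
Paics (chr5:76951115-76951174, plus strand, word 160 to 155 bases before the start): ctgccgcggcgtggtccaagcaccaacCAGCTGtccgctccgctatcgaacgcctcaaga
Irf1 (chr11:53769848-53769907, plus strand, word 139 to 134 bases before the start): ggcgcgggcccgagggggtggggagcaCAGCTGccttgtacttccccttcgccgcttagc

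Among 25 tested genes for E-box binding proteins and the MYC-MAX network, 5 fell (Max, Mycn, Id3, Bhlhe40 and Usf1) and none rose, with a median log2 fold change of -0.36. Max, the shared dimerisation partner of the network, was at 182 and 202 CPM in siNeg and at 57.6 and 107 CPM in siTfap4 (log2 fold change -1.22, adjusted p = 0.0111). Mycn was at 139 and 141 against 33.7 and 83.5 CPM (-1.26, adjusted p = 0.0206). Their adjusted p without siTfap4 replicate 1 was 0.272 and 0.346, and with the GC correction that of Mycn was 0.115. Bhlhe40, a repressor of the circadian system, was at 55.0 and 28.3 against 16.4 and 15.2 CPM (-1.40, adjusted p = 0.00734, and 0.284 without siNeg replicate 1). The GC correction left 4 of the 25 lower.

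Of 23 tested G1/S cyclins, kinases and inhibitors, 2 rose (Cdkn1a and E2f2) and 7 fell (Ccnd1, Ccna2, Cdk2, Cdkn1b, Cdkn2a, Cdkn2b and Rb1), and the median log2 fold change was -0.01, equal to that of all genes, or -0.17 with the GC correction. The falling members held activators and inhibitors of the cycle alike. With the GC correction the log2 fold change of Ccna2 was -0.71 and it was not called (adjusted p = 0.126). Ccnd1, the G1 cyclin D1, was at 215 and 238 CPM in siNeg and at 78.6 and 104 CPM in siTfap4 (log2 fold change -1.31, adjusted p = 0.00425, and 0.0893 without siTfap4 replicate 1). The transcription factor gene E2f2 was at 61.2 and 59.1 against 139 and 111 CPM (1.06, adjusted p = 0.0196), with an adjusted p of 0.100, 0.0828 and 0.152 without siNeg replicate 1, siNeg replicate 2 and siTfap4 replicate 1 and 0.0787 with the GC correction. Ccna2, the cyclin of S phase, was at 143 and 131 against 50.3 and 87.8 CPM (-0.99, adjusted p = 0.0362), and its p without the same 3 libraries was 0.147, 0.0744 and 0.447. The list had 1 rise and 3 falls with the GC correction, no rise and 3 falls without siNeg replicate 1, no rise and 4 falls without siNeg replicate 2, and no rise and 1 fall without siTfap4 replicate 1.

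Of the 39 lists, DNA replication had the most calls: 10 of 23 tested genes fell, with a median log2 fold change of -0.38 beside -0.01 for all genes, and none rose. Mcm4, a subunit of the replicative helicase, was at 243 and 164 CPM in siNeg and at 37.8 and 32.8 CPM in siTfap4 (log2 fold change -2.53, SE 0.33, adjusted p = 2.45e-06). Rrm2, a subunit of the ribonucleotide reductase that makes deoxyribonucleotides, was at 205 and 188 against 30.1 and 70.0 CPM (-1.98, SE 0.35, adjusted p = 0.000351). Both were called under all 14 alternatives and neither had overlapping groups. Mcm6, another helicase subunit, was at 299 and 410 against 109 and 150 CPM (-1.45, adjusted p = 0.00195), and the sliding clamp gene Pcna at 148 and 166 against 43.8 and 105 CPM (-1.08, adjusted p = 0.0404). Leaving out siTfap4 replicate 1 gave them an adjusted p of 0.0608 and 0.506 and left 2 of the list lower. Leaving out siNeg replicate 2 gave Pcna 0.114 and left 6 lower. The GC correction gave 7 falls, 1 rise and a median of -0.19, and Pcna had an adjusted p of 0.0715.

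Of 20 mitosis and G2/M genes, 6 fell (Cdk1, Bub1b, Mad2l1, Bub1, Aurkb and Kif20a) and none rose. Cdk1, the kinase that drives entry into mitosis, was at 152 and 237 CPM in siNeg and at 13.0 and 46.4 CPM in siTfap4 (log2 fold change -2.71, SE 0.56, adjusted p = 0.0165). Bub1b, of the spindle checkpoint, was at 160 and 135 against 44.1 and 53.6 CPM (-1.60, SE 0.31, adjusted p = 0.000612). Both kept their call under all 14 alternatives. The checkpoint gene Mad2l1 was at 97.6 and 87.5 against 24.0 and 50.9 CPM (-1.30, adjusted p = 0.0102), and Bub1 at 111 and 52.0 against 26.3 and 30.0 CPM (-1.53, adjusted p = 0.00320). The adjusted p of Mad2l1 was 0.230 without siTfap4 replicate 1, and that of Bub1 was 0.213 without siNeg replicate 1. The list had 6 falls with the GC correction as well, and 4 without either of these libraries.

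The libraries carried embryonic stem cell transcripts. Sox2 was at 867 and 754 CPM in siNeg and at 874 and 890 CPM in siTfap4, Zfp42 at 343 and 236 against 303 and 251 CPM, and Sall4 at 211 and 232 against 222 and 200 CPM. None of these was called, nor were Esrrb (333 and 445 against 240 and 269 CPM) and Tdgf1 (755 and 694 against 400 and 530 CPM). Of 22 tested genes of naive pluripotency, 1 rose (Pou5f1) and 4 fell (Nanog, Dppa5a, Nr0b1 and Gbx2), with a median log2 fold change of -0.21. Nanog, a core transcription factor of pluripotency, was at 402 and 313 against 75.6 and 175 CPM (-1.51, SE 0.35, adjusted p = 0.00527, and 0.159 without siTfap4 replicate 1). Pou5f1 (OCT4), the other core factor that moved, was at 24.6 and 27.4 against 55.9 and 47.4 CPM (0.99, SE 0.32, adjusted p = 0.0361). Its adjusted p was 0.222, 0.0906 and 0.193 without siNeg replicate 1, siNeg replicate 2 and siTfap4 replicate 1, and 0.117 with the GC correction. The list had 2 falls and no rise without siTfap4 replicate 1. Of 15 formative and primed genes 1 fell, Foxd3, a repressor and pioneer factor at 69.5 and 37.0 against 4.59 and 13.2 CPM (-2.58, SE 0.46, adjusted p = 0.00163), which was called under all 14 alternatives.

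Of 13 LIF and STAT3 genes, 3 fell: the feedback inhibitors Socs3 and Socs1 and the kinase gene Pim3. Socs3 was at 181 and 96.3 CPM in siNeg and at 4.22 and 20.3 CPM in siTfap4 (log2 fold change -3.49, SE 0.76, adjusted p = 0.0355, and 0.0613 without siNeg replicate 2). Pim3 was at 279 and 274 against 50.9 and 146 CPM (-1.49, adjusted p = 0.0192, and 0.219 without siTfap4 replicate 1). The groups of both were apart, with the lowest value in siTfap4 replicate 1. The list then had 1 fall without that library. Socs1, at 2.26 and 1.63 against 0.362 and 0.231 CPM, lost its call without siNeg replicate 1 (adjusted p = 0.184), siTfap4 replicate 1 (0.157) or siTfap4 replicate 2 (0.113).

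The FGF-ERK list had 7 falls among 16 tested genes, the receptors Fgfr1 and Fgfr2 and the feedback inhibitors Dusp6, Il17rd, Spry1, Spry4 and Spred2, and its median log2 fold change was -0.75. Dusp6, a phosphatase of ERK that is itself induced by ERK signalling, was at 182 and 133 CPM in siNeg and at 6.64 and 19.6 CPM in siTfap4 (log2 fold change -3.58, SE 0.43, adjusted p = 3.04e-05). It was called under all 14 alternatives. Fgfr1 was at 48.4 and 37.6 against 17.4 and 17.3 CPM (-1.31, adjusted p = 0.00759), and Fgfr2 at 25.1 and 21.7 against 3.86 and 11.4 CPM (-1.61, adjusted p = 0.0104). Il17rd was at 52.5 and 48.7 against 15.2 and 28.5 CPM (-1.21, adjusted p = 0.0156). With the GC correction Fgfr2 (adjusted p = 0.0788) and Il17rd (0.126) were not called. The adjusted p of Fgfr1 was 0.0952 without siNeg replicate 1, that of Fgfr2 was 0.181 without siTfap4 replicate 1, and that of Il17rd was 0.0675 and 0.279 without these. Under the GC correction the list had 3 falls and a median of -0.49, without siNeg replicate 1 it had 2 falls and 1 rise, and without siTfap4 replicate 1 it had 4 falls.

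Of 15 WNT pathway genes and feedback targets, 4 fell (Tcf7, Notum, Znrf3 and Cdx1). With the GC correction Znrf3 (adjusted p = 0.0951) and Cdx1 (0.0637) were not called. Tcf7, a DNA-binding partner of beta-catenin, was at 19.5 and 19.3 CPM in siNeg and at 1.57 and 1.62 CPM in siTfap4 (log2 fold change -3.60, SE 0.44, adjusted p = 1.11e-06), and duplicates lay close together in both groups. It kept its call under all 14 alternatives. Notum, a secreted inhibitor that removes the lipid of WNT proteins, was at 112 and 22.1 against 1.45 and 5.43 CPM (-4.27, SE 1.00, adjusted p = 0.0479), with siNeg replicate 1 the higher of its pair. It had an adjusted p of 0.0551 with upper-quartile factors and 0.198 with the GC correction and replicate block together. The receptor ligase gene Znrf3 was at 9.62 and 9.56 against 3.14 and 3.47 CPM (-1.53, adjusted p = 0.0156), and its adjusted p was 0.0703, 0.0568 and 0.111 without siNeg replicate 1, siNeg replicate 2 and siTfap4 replicate 1. Without siNeg replicate 1, and likewise without siTfap4 replicate 1, 2 members of the list were lower, as with the GC correction.

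Among 18 Nodal, activin and TGF-beta genes, the activin receptor gene Acvr1b fell, a call kept under the 13 alternatives that tested it. It was at 18.9 and 12.4 CPM in siNeg and at 2.41 and 4.62 CPM in siTfap4 (log2 fold change -2.15, adjusted p = 0.000724). Of 11 BMP and Id genes, 4 fell (Bambi, Acvr1, Id3 and Smad6). Bambi, a decoy receptor, was at 7.62 and 3.44 against 0.121 and 0.231 CPM, which is 1 and 2 counts in siTfap4 (-4.88, SE 0.78, adjusted p = 4.07e-05), and Id3, which blocks E-box binding proteins, at 61.3 and 94.1 against 7.12 and 27.3 CPM (-2.17, adjusted p = 0.0401). Id3 had an adjusted p of 0.0634 without siNeg replicate 2. Acvr1, a BMP receptor, was at 9.46 and 3.63 against 0.121 and 1.39 CPM (-3.09, adjusted p = 0.00522, and 0.0512 without siNeg replicate 1). The inhibitor Smad6 was at 11.1 and 8.51 against 3.74 and 4.50 CPM (-1.25, adjusted p = 0.0455). The Smad6 call was lost on leaving out any one library (0.0517 to 0.294) and with the GC correction (-0.74, adjusted p = 0.231). The number of falls was 2 without siNeg replicate 2 and 2 without siNeg replicate 1.

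Metabolic lists had calls in both directions. Of 22 glycolysis and hypoxia genes, 2 rose (Pgam1 and Slc16a3) and 3 fell (Gapdh, Slc2a1 and Tpi1), with a median log2 fold change of 0.05, or 0.01 with the GC correction. Gapdh was at 136 and 121 CPM in siNeg and at 17.3 and 16.5 CPM in siTfap4 (log2 fold change -2.92, SE 0.33, adjusted p = 2.92e-07), a fall called under all 14 alternatives for a gene whose reads are shared with copies. The lactate exporter gene Slc16a3 was at 56.1 and 40.6 against 122 and 75.7 CPM (1.03, adjusted p = 0.0305), and its adjusted p was 0.185 without siNeg replicate 2 and 0.390 without siTfap4 replicate 1. Of 20 cholesterol synthesis genes 1 rose, Mvd, an enzyme of the mevalonate pathway (36.5 and 47.5 against 120 and 82.6 CPM, log2 fold change 1.27, adjusted p = 0.00710). Mvd was not called with the GC correction (adjusted p = 0.0675), without siNeg replicate 1 (0.100) or without siTfap4 replicate 1 (0.0987).

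Of 20 genes for stress-induced translation control and amino acid supply, 2 rose (Atf5 and Ddit3) and 3 fell (Phgdh, Psph and Slc7a11). Phgdh and Psph, the first and last enzymes of serine synthesis, were called under all 14 alternatives. Phgdh was at 53.1 and 93.9 CPM in siNeg and at 8.09 and 15.5 CPM in siTfap4 (log2 fold change -2.64, SE 0.38, adjusted p = 1.92e-05), and Psph at 158 and 117 against 38.1 and 55.3 CPM (-1.56, SE 0.32, adjusted p = 0.00104). The stress-induced factor Atf5 was at 73.6 and 79.3 against 164 and 136 CPM (0.97, adjusted p = 0.0315, and 0.140 with the GC correction). Leaving out siNeg replicate 1, siNeg replicate 2 and siTfap4 replicate 1 gave Atf5 an adjusted p of 0.188, 0.0829 and 0.201. Among 17 NRF2 and redox genes, Hmox1 rose (30.4 and 18.7 against 61.9 and 44.2 CPM, 1.11, adjusted p = 0.0246, and 0.211 without siNeg replicate 2 or without siTfap4 replicate 1) and Gsr, Gpx4 and Slc7a11 fell. The glutathione reductase gene Gsr was at 69.9 and 42.7 against 21.0 and 13.9 CPM (-1.69, adjusted p = 0.000980) and was called under all 14 alternatives. Gpx4, which repairs lipid peroxides, was at 19.2 and 37.8 against 7.24 and 11.2 CPM (-1.62, adjusted p = 0.00432, and 0.144 without siNeg replicate 2). The cystine importer gene Slc7a11 was at 70.3 and 45.3 against 24.9 and 32.8 CPM (-1.0, adjusted p = 0.0389). The Slc7a11 call was lost without siNeg replicate 1 (0.417), without siTfap4 replicate 1 (0.282) and with the GC correction (-0.47, adjusted p = 0.316).

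Of 19 p53 targets 2 rose, Cdkn1a and the secreted stress factor Gdf15, and none fell. Gdf15 was at 60.1 and 50.4 CPM in siNeg and at 123 and 91.0 CPM in siTfap4 (log2 fold change 0.95, SE 0.31, adjusted p = 0.0384). Its adjusted p was 0.102, 0.172 and 0.312 without siNeg replicate 1, siNeg replicate 2 and siTfap4 replicate 1, and the list had no rise in any of these 3 fits. Of 17 apoptosis regulators, 2 rose (Bad and Bak1) and 2 fell (Bid and Apaf1). Bid, which links death receptors to mitochondria, was at 44.5 and 37.0 against 5.31 and 10 CPM (-2.40, SE 0.37, adjusted p = 2.60e-05) and was called under all 14 alternatives. Bad was at 16.2 and 31.9 against 54.2 and 54.2 CPM (1.17, adjusted p = 0.0197, 0.335 without siNeg replicate 1 and 0.118 with the GC correction).

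None of 13 interferon-response genes and RNA sensors passed the test. Their median log2 fold change was 0.34, or 0.21 with the GC correction, and their summed level was 802 and 947 CPM in siNeg and 1221 and 1074 CPM in siTfap4. The most abundant, Ifitm3, an antiviral membrane protein, was at 544 and 702 against 967 and 821 CPM (0.52, adjusted p = 0.299).

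Of 26 cytosolic ribosomal protein genes in the list, 3 fell (Rpl11, Rps2 and Rps18). The median log2 fold change of the list was -0.40, or -0.55 with the GC correction. The list does not hold all genes of the class: Rps23, Rps27a, Rpl17 and Rps24, given above, are outside it and also fell. Rpl11 was at 141 and 223 CPM in siNeg and at 10.1 and 34.3 CPM in siTfap4 (log2 fold change -3.03, SE 0.53, adjusted p = 0.00502) and was called under all 14 alternatives. The GC correction gave 6 falls, and without siNeg replicate 1 or without siTfap4 replicate 2 the number was 8. Their summed level was 28463 and 46377 CPM in siNeg and 30261 and 42547 CPM in siTfap4, so that replicate 1 of each group was the lower. Of 18 proteasome genes 1 rose and 5 fell, with a median of -0.44. Psmc1, an ATPase of the regulatory particle, was at 254 and 254 against 713 and 491 CPM (1.24, adjusted p = 0.00842, and 0.161 without siTfap4 replicate 1), while Psmc2, another of its ATPases, was at 208 and 252 against 61.4 and 151 CPM (-1.11, adjusted p = 0.0420, 0.128 without siNeg replicate 2 and 0.504 without siTfap4 replicate 1). The list had 2 falls without siTfap4 replicate 1, 2 without siNeg replicate 2, 7 without siNeg replicate 1, 7 without siTfap4 replicate 2 and 5 with the GC correction. Of 22 genes of ribosome biogenesis 1 fell, the methyltransferase gene Fbl (50.8 and 90.8 against 16.3 and 38.7 CPM, -1.36, adjusted p = 0.0259), and its adjusted p was 0.192 without siNeg replicate 2 and 0.222 without siTfap4 replicate 1.

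Of 22 nuclear-encoded respiratory chain subunits in the list, 3 fell, all under all 14 alternatives. Ndufb3 of complex I was at 231 and 227 CPM in siNeg and at 17.9 and 45.4 CPM in siTfap4 (log2 fold change -2.85, SE 0.38, adjusted p = 1.69e-05). Ndufa1, also of complex I, was at 94.8 and 78.4 against 8.81 and 23.1 CPM (-2.44, adjusted p = 0.000133), and Uqcrfs1, the iron-sulfur protein of complex III, at 141 and 154 against 34.6 and 54.6 CPM (-1.72, adjusted p = 0.000346). No siTfap4 value of the 3 reached the lower siNeg value. The list's median was 0.05, or -0.08 with the GC correction. Cox7c, given above, is outside the list and also fell. Among 7 tested mitochondrially encoded genes 1 fell, mt-Cytb.

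In the actin and cytoskeleton list 2 of 14 genes fell, Pfn1 and Tmsb4x. Tmsb4x, the thymosin that sequesters actin monomers, was at 912 and 854 CPM in siNeg and at 20.2 and 91.1 CPM in siTfap4 (log2 fold change -3.99, SE 0.69, adjusted p = 0.0123), and its adjusted p was 0.119 without siNeg replicate 2. The list's summed level was 5790 and 6808 CPM in siNeg and 10104 and 7245 CPM in siTfap4, with a median log2 fold change of -0.10, or 0.02 with the GC correction. Both falling members bind actin monomers, as does Dstn, which is not in the list and rose. Of 10 small nucleolar RNA host genes, 2 fell, Snhg8 and Snhg6 (61.0 and 13.7 against 3.62 and 2.66 CPM, -3.57, adjusted p = 0.0223), and both were called under all 14 alternatives.

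The cluster was deleted in both groups. Of 18 tested genes reported as targets of its microRNAs, 2 rose (Cdkn1a and Rhoc) and 4 fell (Tfap4, Mbd2, Akt1 and Nfkbia). Tfap4 is the transcript that the siPOOL targets, so its fall came with the design and tells nothing of the list. With the GC correction no member of the list rose and 2 fell (Tfap4 and Mbd2). Without siTfap4 replicate 1 the number was 1 fall and no rise. In the microRNA processing list 1 of 15 fell, the precursor exporter gene Xpo5 (95.7 and 127 against 39.7 and 50.2 CPM, -1.31, adjusted p = 0.00502), with an adjusted p of 0.0652 without siNeg replicate 2 and 0.0639 without siTfap4 replicate 1. Of 14 DNA methylation genes 2 fell. Mbd2, which binds methylated DNA, was at 23.2 and 22.1 CPM in siNeg and at 4.83 and 6.47 CPM in siTfap4 (adjusted p = 0.000378) and kept its call under all 14 alternatives. Uhrf1, which recruits the maintenance methyltransferase, was at 160 and 139 against 61.1 and 89.7 CPM (-0.99, adjusted p = 0.0318), with an adjusted p of 0.176, 0.0595 and 0.353 without siNeg replicate 1, siNeg replicate 2 and siTfap4 replicate 1. Of 14 histone genes 1 fell, H3f3a (45.2 and 44.0 against 10.5 and 16.4 CPM, -1.73, adjusted p = 0.000721), and 1 rose, Hist1h2ae, which lost its call on leaving out any one of the 4 libraries (adjusted p from 0.0829 to 0.302). None of 16 imprinted genes was called. The most abundant, Meg3, was at 1013 and 580 against 1831 and 827 CPM (0.74, adjusted p = 0.211), with replicate 1 the higher of each pair.

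Calls among markers of other cell types are to be read beside the 10.7% lower and 2.36% higher of all tested genes. Of 12 endoderm genes 1 fell (Sox7), of 9 trophectoderm genes 1 (Gata2), of 5 mesoderm genes 2 (Snai1 and Cdx1), and of 6 ectoderm, 3 tested genes of the 2-cell-like state and 3 fibroblast genes none. The called ones were low throughout. Gata2 was at 3.85 and 2.01 CPM in siNeg and at 0.603 and 0.347 CPM in siTfap4, Sox7 at 2.51 and 1.43 against 0.241 and 0.578 CPM, and Cdx1 at 3.51 and 3.16 against 0.483 and 0.924 CPM. Gata2 (adjusted p = 0.0604), Sox7 (0.153), Snai1 (0.0539) and Cdx1 (0.0637) were not called with the GC correction, nor without siNeg replicate 1 (0.201, 0.362, 0.0573 and 0.0859) or siTfap4 replicate 1 (0.0570, 0.400, 0.182 and 0.218). Leaving out siTfap4 replicate 2 gave Gata2 0.0623 and Sox7 0.0627, and leaving out siNeg replicate 2 gave Sox7 0.0521. Summed over the tested markers, endoderm genes were at 720 and 601 CPM in siNeg and at 815 and 611 CPM in siTfap4, trophectoderm genes at 229 and 298 against 183 and 301 CPM, and mesoderm genes at 19.6 and 17.4 against 8.93 and 12.1 CPM. Ectoderm genes summed to 126 and 130 against 154 and 121 CPM, and genes of the 2-cell-like state to 215 and 252 against 108 and 167 CPM. Nearly all of the 2-cell-like sum came from Eif1a, at 214 and 248 against 108 and 161 CPM, which was not called. The median log2 fold change of that list was 0.37, so its sum does not describe the other members. Summed fibroblast markers were at 16.2 and 11.9 CPM in siNeg and at 9.41 and 8.20 CPM in siTfap4. Of 8 mesenchymal genes Vim and Snai1 fell, and of 15 epithelial genes Crb3 fell (10.1 and 12.1 against 3.74 and 5.89 CPM, -1.20, adjusted p = 0.0487, and 0.105 to 0.374 without siNeg replicate 1, siNeg replicate 2 or siTfap4 replicate 1).

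**Figure D5:**
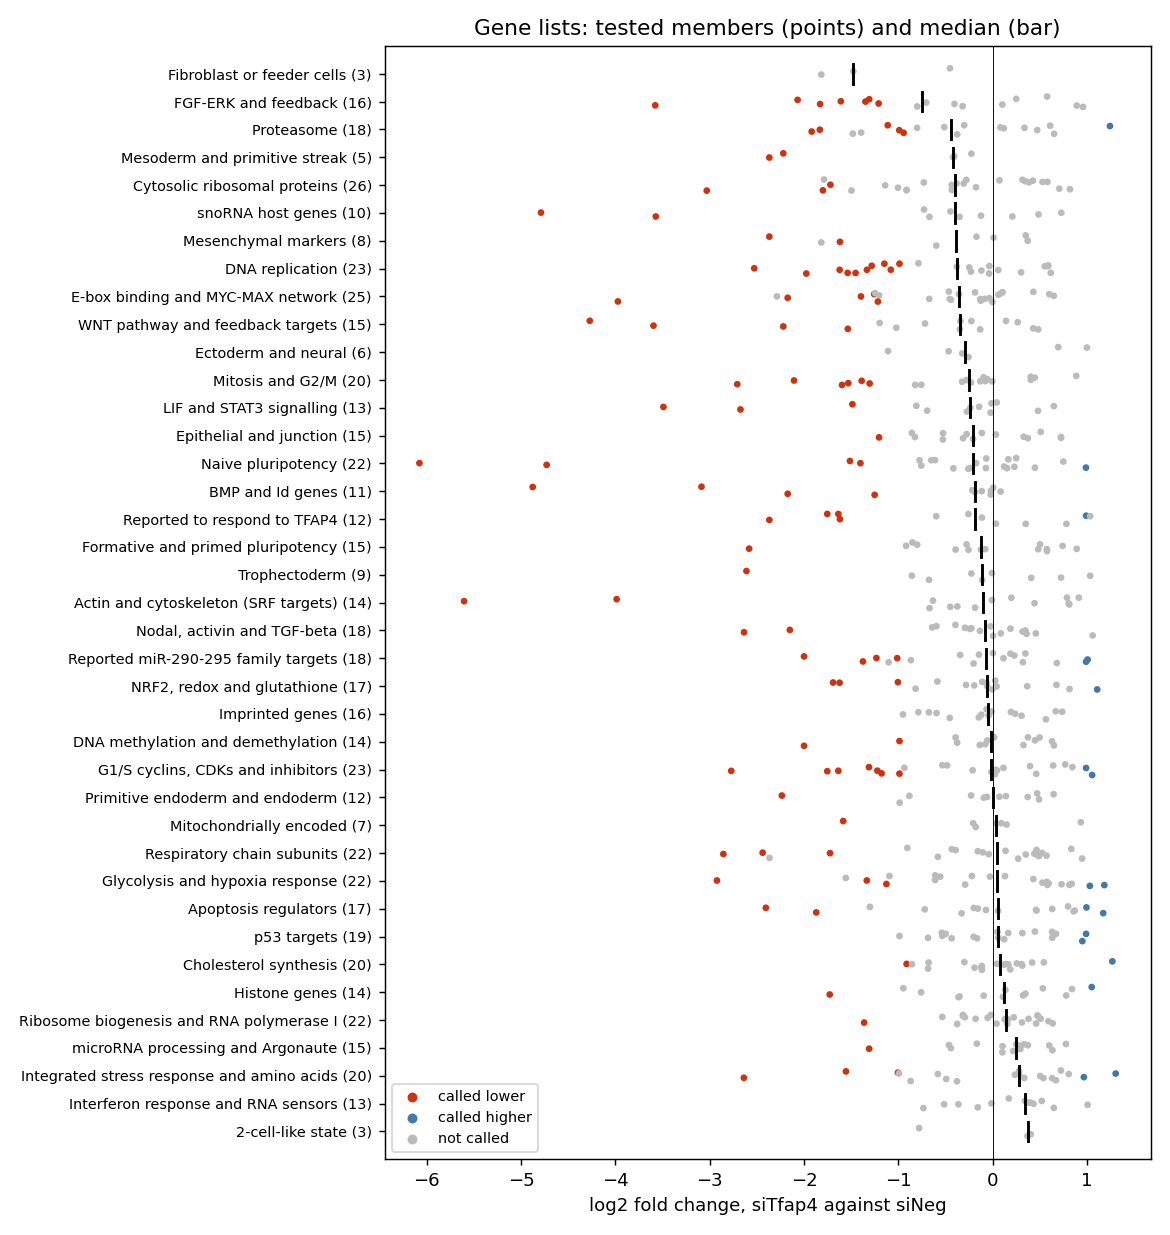
Log2 fold change of siTfap4 against siNeg for each tested member of 39 gene lists (points) with the list's median (black bar), ordered by median, with the number of tested members in brackets. Called members are mostly on the lower side, as for all genes, and the FGF-ERK list has 7 falls and a median of -0.75.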

How the data were processed

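The deposited table holds raw counts per gene, which the authors made from QuantSeq 3′ reads with Trim Galore and GRCm38, per the submitters' processing notes, with an aligner, counting tool and strand setting not given in the sources used here. All 4 libraries were fitted without the other set in edgeR 4.0.16 (filterByExpr, TMM factors, robust quasi-likelihood fit), with Benjamini-Hochberg adjustment over 13675 genes (threshold 0.05). Symbols (55240 of 55421 identifiers), positions and the GC of the longest transcript's last 100 bases came from GENCODE vM21. The GC correction was a lowess curve per library (span 0.3) used as an offset. DESeq2 1.42.0, limma-voom 3.58.1 and other scalings, filters and left-out libraries were tried; a lone library was assumed to vary like the other group. The fit was tested on simulated data. Promoters were each gene's first RefSeq entry.

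Members and the 39 gene lists (598 tested entries) were chosen with earlier results of these data known. Named were Tfap4, the 10 largest rises and falls of at least 10 CPM without overlap, the 10 most abundant falls and the rises called under every alternative, the 5 most abundant calls of each direction, and up to 4 called members of a list or its 2 most abundant. Stem cell markers, Fn1, Cdh1 and members given by name only were chosen beside this rule, with their values seen. Some genes that the rule selects are not reported here.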

Additional observations from a re-analysis of the deposited data

How the results depend on the processing

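Falls outnumbered rises under each alternative, while their numbers varied. The number of called genes was 1789, and 1151 with no filter on low counts and 2722 at a threshold of 0.1. Rises numbered 323, and 660 when all 8 libraries were fitted, 695 with upper-quartile factors, 115 with no filter on low counts and 792 at a threshold of 0.1. Leaving out 1 library gave 688 to 2749 calls, 29 to 768 rises and 659 to 1981 falls. The adjusted p of Tfap4 lay between 0.00110 and 0.0745 over the 14 fits, the highest without siTfap4 replicate 1, and its log2 fold change between -1.59 and -1.09 (-1.18 without that library).

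With the replicate number as a replicate block there were 2691 calls, 722 of them rises, and 815 rises when the block was combined with the GC correction. Across genes, the difference between the siNeg duplicates correlated with that between the siTfap4 duplicates at 0.15, or 0.22 after the GC curve was removed. Nothing in the labels ties the numbers to a shared culture or day. Whether same-numbered libraries shared either is not given in the sources used here and was not tested.

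Of the 118 named genes that were called, 58 lost their call without siTfap4 replicate 1, 36 without siNeg replicate 1, 36 without siNeg replicate 2, 9 without siTfap4 replicate 2, 32 with no filter on low counts and 31 with the GC correction. The 118 leave out Tfap4, whose fits are given above. No named gene changed direction past the threshold. The cause was not tested. With 2 libraries a group and 8326675 to 11395211 counts, genes of a few CPM rest on few counts.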
